A study of Mus musculus with 18 samples.

Results

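The 4 genes of the Elavl family, Elavl1, Elavl2, Elavl3 and Elavl4, were followed in the dorsal telencephalon of mouse embryos that differ in Insm1. Each gene was taken by its symbol from the probe sets of the array platform's own numbering range, and each had 1 probe set with that symbol alone, so the family is 4 of 16661 probe sets tested. The dorsal telencephalon is the forebrain region from which the neocortex grows. It was collected at E13.5 (embryonic day) from 4 homozygous Insm1 knockout embryos (2 mutant alleles), 6 heterozygous Insm1 knockout embryos (1 mutant allele) and 8 wildtype embryos, 1 array per embryo. The stated purpose was a search for target genes of Insm1, a zinc finger transcription factor. The sources used here give neither the strain nor the build of the knockout allele, nor which embryos were littermates. The p-values therefore cover no more than the spread among the embryos sampled.

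Elavl proteins, also called Hu proteins, bind AU-rich and U-rich stretches of messenger RNA through RNA recognition motifs. They stabilise bound transcripts, alter their translation and, in the nucleus, alter splicing. Elavl2 (HuB), Elavl3 (HuC) and Elavl4 (HuD) are the neuronal members, switched on as cells of the cortical wall leave the cycle and become neurons, and are widely used as early neuronal markers. Elavl1 (HuR) is made in most cell types, dividing progenitors included.

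The upstream sequence of each gene is shown because 3 of the 4 genes fell in the same comparison, and the E-box (CANNTG), a common motif of neuronal promoters, was searched in each. RefSeq windows (build GRCm38.p6) were found for 4 of 4 members, with 1 window for Elavl1, 6 for Elavl2, 1 for Elavl3 and 4 for Elavl4, each for an annotated start. For each gene the 250 bases before 1 start are printed, 5′ to 3′, with E-boxes in capitals. Where a gene had several windows, the printed one was picked for having the most E-boxes, and of those the one farthest upstream, so its own count is a description only.
Elavl4 (chr4:110287528-110287777, minus strand): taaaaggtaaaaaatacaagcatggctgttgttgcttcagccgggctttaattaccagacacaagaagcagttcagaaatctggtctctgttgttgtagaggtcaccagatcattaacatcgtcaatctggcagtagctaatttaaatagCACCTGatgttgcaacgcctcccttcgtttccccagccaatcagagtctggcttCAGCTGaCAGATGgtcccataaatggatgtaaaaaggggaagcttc
Elavl3 (chr9:22052024-22052273, minus strand): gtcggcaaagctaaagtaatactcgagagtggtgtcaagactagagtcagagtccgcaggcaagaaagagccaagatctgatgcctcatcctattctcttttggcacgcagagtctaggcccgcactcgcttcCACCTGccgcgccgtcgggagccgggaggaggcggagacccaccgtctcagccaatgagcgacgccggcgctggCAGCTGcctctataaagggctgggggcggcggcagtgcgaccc
Elavl2 (chr4:91372070-91372319, minus strand): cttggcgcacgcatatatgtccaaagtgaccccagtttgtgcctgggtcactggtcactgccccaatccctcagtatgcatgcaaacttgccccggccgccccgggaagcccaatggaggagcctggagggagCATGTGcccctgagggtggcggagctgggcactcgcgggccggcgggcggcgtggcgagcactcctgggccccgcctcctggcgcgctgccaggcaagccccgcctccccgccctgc
Elavl1 (chr8:4325101-4325350, minus strand): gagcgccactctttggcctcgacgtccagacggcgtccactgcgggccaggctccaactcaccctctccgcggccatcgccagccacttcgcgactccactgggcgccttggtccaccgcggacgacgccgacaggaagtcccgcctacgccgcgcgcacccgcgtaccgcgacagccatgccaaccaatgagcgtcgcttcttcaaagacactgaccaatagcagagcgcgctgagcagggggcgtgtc

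The Elavl4 window held 3 E-boxes, with CACCTG beginning 100 bases, CAGCTG 46 bases and CAGATG 39 bases before the start. The Elavl3 window held 2, with CACCTG at 117 and CAGCTG at 43 bases. The Elavl2 window held 1, CATGTG, at 117 bases, and the Elavl1 window held 0. CANNTG reads the same on both strands and includes the other hexamers named here. Over all windows of each gene, at least 1 CANNTG stood in 3 of 4 for Elavl4, 1 of 1 for Elavl3, 3 of 6 for Elavl2 and 0 of 1 for Elavl1. Windows of a gene can overlap, so these are not counts of separate stretches. The 3 Elavl2 windows with an E-box ended at 91372290, 91372305 and 91372319 and share most of their bases. So do the Elavl4 windows that ended at 110287761 and 110287777. At least 1 CANNTG stood in 66.2% of all 32851 windows of this length in the table. CAGCTG stood in 13.0%, CAGATG or its complement in 14.4% and CACCTG or its complement in 17.2% of them, none of which were picked for a motif. CCAAT, on either strand, occurred 2 times in the Elavl1 and Elavl2 windows and 1 time in the Elavl3 and Elavl4 windows, against 33.8% of all windows with at least 1. The 8 letters CAGGGGGC, a form of the core described for Insm1 binding, were searched as this exact string only. They were found on either strand in 1 of 1 Elavl1 windows, 1 of 6 Elavl2 windows, 0 of 1 Elavl3 windows and 0 of 4 Elavl4 windows, against 2.52% of all windows. Other forms of that core were not counted, so a window without this string may still hold one. These matches describe letters in short windows and were not linked to binding.

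Values are log2 signals per probe set, so a difference of -1 is a halving. Insm1 itself averaged 3.31 ± 0.34 (SD) over the 4 homozygous, 4.77 ± 0.39 over the 6 heterozygous and 5.34 ± 0.34 over the 8 wildtype embryos. Arrays had 75th percentiles of 4.67 to 4.75 in homozygous, 4.50 to 4.78 in heterozygous and 4.67 to 4.87 in wildtype embryos. In homozygous replicate 2 and heterozygous replicate 6 a list of hypoxia response genes stood apart, at 4.93 and 4.93, against 3.60 to 3.698 in the other homozygous, 3.56 to 3.78 in the other heterozygous and 3.45 to 3.81 in the wildtype embryos. Eif2s3y, a marker of male embryos, was high in 1 of 4 homozygous, 3 of 6 heterozygous and 5 of 8 wildtype embryos. The tissue label was checked in wildtype arrays, where the dorsal genes Emx2, Pax6 and Tbr1 averaged 6.47, 6.18 and 7.48. The means of the 10 ventral and interneuron genes ran from 0.73 (Gsx2) to 5.15 (Sst), with Dlx1 at 2.41 ± 0.77 (SD, n = 8) and Dlx2 at 2.33 ± 0.30 (SD, n = 8). Levels of different probe sets are not comparable, so these values describe the samples without grading the dissection.

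Homozygous embryos, set against wildtype embryos, showed the family with both Insm1 alleles mutant. The 3 neuronal members fell: Elavl4 to 73.7%, Elavl3 to 74.4% and Elavl2 to 79.7% of the wildtype level. Elavl1 stood at 84.3% of the wildtype level and did not pass the test. With limma and Benjamini-Hochberg adjustment over all probe sets, 0.504% of the 16661 were called lower and 0.06% higher, 84 and 10 probe sets, while 3 of the 4 Elavl genes were called lower and 0 higher. The Elavl genes were chosen with earlier results of these data known. Here and below, their counts beside the share of all probe sets are therefore a description only. The split of all calls depended on the scale of the arrays, with 74 lower and 84 higher after a further quantile normalization and 67 lower and 75 higher after median centring. All 4 Elavl means stayed lower under both, with Elavl2 and Elavl4 called.

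Elavl4, the HuD gene, had 5.76, 5.82, 5.85 and 5.87 in homozygous embryos. Its lowest, median and highest levels were 6.04, 6.16 and 6.23 in heterozygous embryos and 6.08, 6.27 and 6.51 in wildtype embryos. All 4 homozygous embryos lay below every embryo of the other genotypes, with an SD of 0.05 among them. The log2 difference from wildtype was -0.44 (SE 0.07, limma adjusted p = 0.00325), the 15th smallest p among all probe sets. The call held without any 1 of the 18 arrays (adjusted p up to 0.0179).

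Elavl2, the HuB gene, had 6.02, 6.003, 6.04 and 6.17 in homozygous embryos. The lowest, median and highest levels were 6.24, 6.33 and 6.49 in heterozygous and 6.23, 6.38 and 6.57 in wildtype embryos. Here too the 4 homozygous embryos lay below every other embryo, but the gap between homozygous replicate 4 and the lowest wildtype embryo was narrow. The difference from wildtype was -0.33 (SE 0.06, limma adjusted p = 0.022). The call ended without homozygous replicate 2 (-0.31, adjusted p = 0.0972) or without homozygous replicate 3 (-0.32, adjusted p = 0.084). It also ended in fits that held the hypoxia list (-0.31, adjusted p = 0.054) or the ventral telencephalon list (-0.30, adjusted p = 0.0699) as a covariate.

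Elavl3, the HuC gene, was uneven among homozygous embryos, with 7.39, 6.90, 6.99 and 6.998 in replicates 1 to 4. The lowest, median and highest levels were 7.30, 7.46 and 7.65 in heterozygous and 7.38, 7.48 and 7.62 in wildtype embryos. Replicate 1 therefore lay inside the range of both other genotypes, and the other 3 homozygous embryos lay below all of them. The difference from wildtype was -0.43 (SE 0.09, limma adjusted p = 0.0249) with all homozygous embryos and -0.53 (adjusted p = 0.00263) without replicate 1. The call ended without homozygous replicate 2 (-0.37, adjusted p = 0.127), 3 (-0.40, adjusted p = 0.115) or 4 (-0.40, adjusted p = 0.0712), and, by a small margin, without wildtype replicate 1 (-0.41, adjusted p = 0.0518) or 3 (-0.41, adjusted p = 0.0528). Neither quantile normalization (-0.38, adjusted p = 0.0517) nor the centring of each array on its median (-0.36, adjusted p = 0.0736) kept the call. Nor did a fit with the hypoxia list (-0.41, adjusted p = 0.0568) or the ventral list (-0.39, adjusted p = 0.0761) as a covariate.

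Elavl1, the HuR gene, had 8.52, 8.30, 8.22 and 8.40 in homozygous embryos, with lowest, median and highest levels of 8.498, 8.60 and 8.63 in heterozygous and 8.45, 8.60 and 8.82 in wildtype embryos. Of the 4 homozygous embryos 3 lay below all others, and replicate 1, as for Elavl3, lay within their range. The difference from wildtype was -0.25 (SE 0.07, limma adjusted p = 0.0862, 95% interval -0.39 to -0.11). It passed in 1 setting, without homozygous replicate 1 (-0.30, adjusted p = 0.0322).

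**Figure D1:**
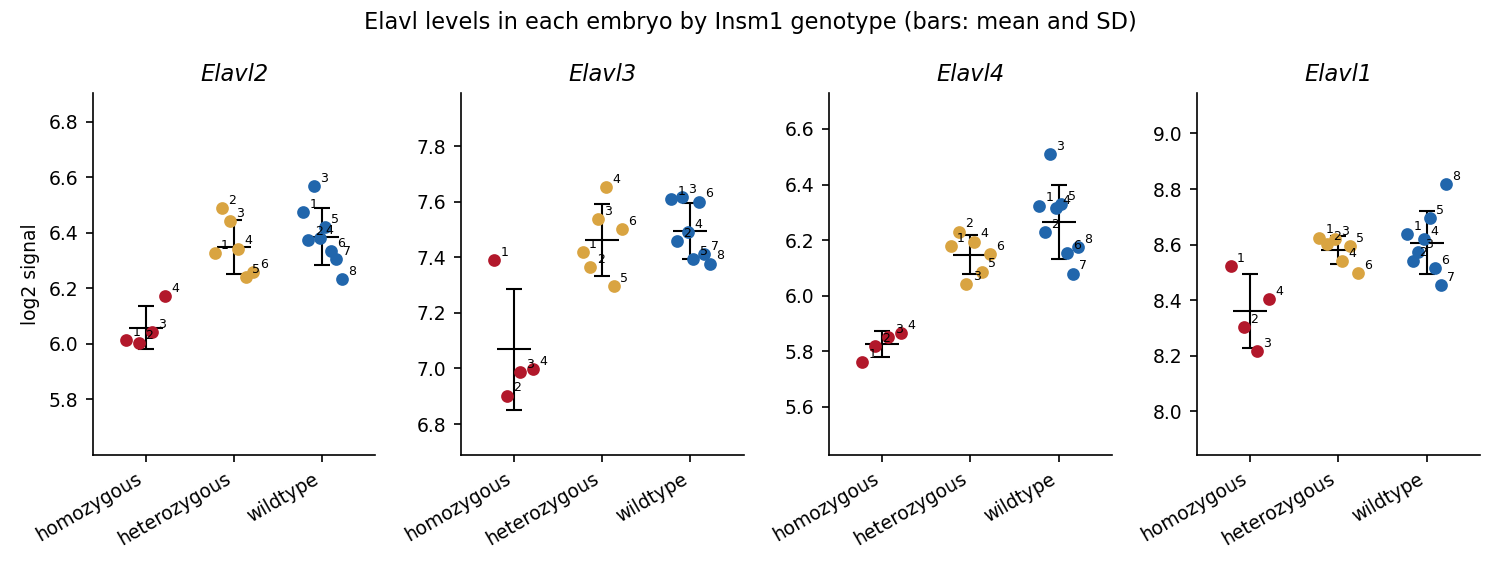
Log2 signal of each Elavl gene in every embryo, with homozygous, heterozygous and wildtype embryos from left to right, replicate numbers beside the points, and black bars for the mean and SD. All homozygous embryos lie below the others for Elavl2 and Elavl4, while homozygous replicate 1 lies among the others for Elavl3 (7.39) and Elavl1 (8.52).

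No overlap between the 4 homozygous and 8 wildtype embryos, with the homozygous ones lower, was seen for Elavl2 and Elavl4, which is 2 of 4 members, against 2.21% of all probe sets. Against the 6 heterozygous embryos the same 2 members showed no overlap, against 0.822% of all probe sets. Homozygous replicate 1 had the lowest Elavl4 of all embryos together with the highest Elavl3 and Elavl1 of its genotype. The order of the 4 homozygous embryos was thus not shared by the members.

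**Figure D2:**
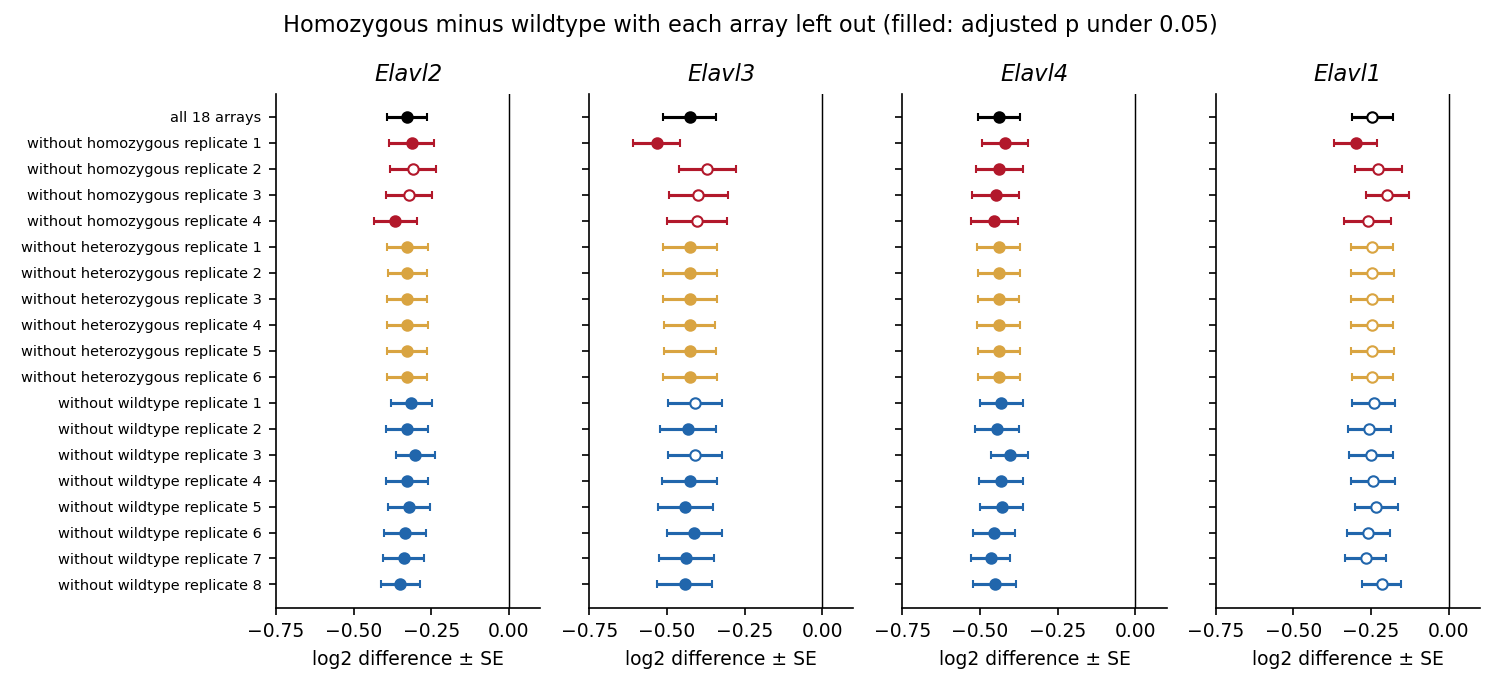
Log2 difference of homozygous minus wildtype embryos (points, with SE) for each Elavl gene with all 18 arrays and with each array left out, filled where the limma adjusted p is under 0.05. Elavl4 stays filled throughout, Elavl2 loses the call without homozygous replicate 2 or 3, Elavl3 loses it without homozygous replicate 2, 3 or 4 or wildtype replicate 1 or 3, and Elavl1 gains it without homozygous replicate 1.

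With 1 mutant allele the Elavl genes stayed close to wildtype. No Elavl gene passed the test, nor did any other probe set in limma (0%), although 7.47% had an unadjusted p under 0.05. None of the Elavl genes did. The difference was -0.12 for Elavl4 (SE 0.06, 95% interval -0.24 to 0.01, limma adjusted p = 0.666), and all 6 heterozygous embryos lay below the wildtype median. It was -0.04 for Elavl2 (95% interval -0.16 to 0.08), -0.03 for Elavl3 (-0.19 to 0.12) and -0.03 for Elavl1 (-0.15 to 0.10), and these 3 turned slightly positive after quantile normalization (0.01, 0.01 and 0.01) and median centring (0.02, 0.02 and 0.03). No Elavl gene separated heterozygous from wildtype embryos, as 0.126% of all probe sets did with the heterozygous embryos lower.

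Set against heterozygous embryos, homozygous embryos differed by -0.32 for Elavl4 (SE 0.07, limma adjusted p = 0.153), -0.39 for Elavl3 (SE 0.09, adjusted p = 0.172), -0.29 for Elavl2 (SE 0.07, adjusted p = 0.178) and -0.22 for Elavl1 (SE 0.07, adjusted p = 0.396). None passed over all probe sets, of which 0.018% were called lower, 3 in number. Elavl4 passed with quantile normalized arrays (-0.30, adjusted p = 0.0431) and with each array's 75th percentile as a covariate (-0.33, adjusted p = 0.0306), and Elavl3 passed without homozygous replicate 1 (-0.50, adjusted p = 0.0145). The homozygous arrays are shared between this comparison and that with wildtype.

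The slope per mutant allele was -0.21 for Elavl4 (SE 0.03, limma adjusted p = 0.00783), -0.19 for Elavl3 (SE 0.05, adjusted p = 0.0637), -0.15 for Elavl2 (SE 0.04, adjusted p = 0.0553) and -0.11 for Elavl1 (SE 0.03, adjusted p = 0.119). Elavl4 alone of the 4 passed, against 0.642% of all probe sets called with a negative slope. Its call was lost with the cortical neuron list as a covariate (-0.115, adjusted p = 0.509). The slope of Elavl2 passed without wildtype replicate 7 or 8 or heterozygous replicate 2 or 6 (adjusted p up to 0.0448). That of Elavl3 passed without wildtype replicate 7, heterozygous replicate 4 or 6, or homozygous replicate 1 (adjusted p up to 0.0453). Heterozygous levels lay above the midpoint of the other genotypes by 0.18 for Elavl3 (SE 0.07), 0.13 for Elavl2 (SE 0.05), 0.10 for Elavl4 (SE 0.06) and 0.10 for Elavl1 (SE 0.06). None of these passed (adjusted p from 0.814 to 0.9), and 1 of all probe sets did (0.006%).

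**Figure D3:**
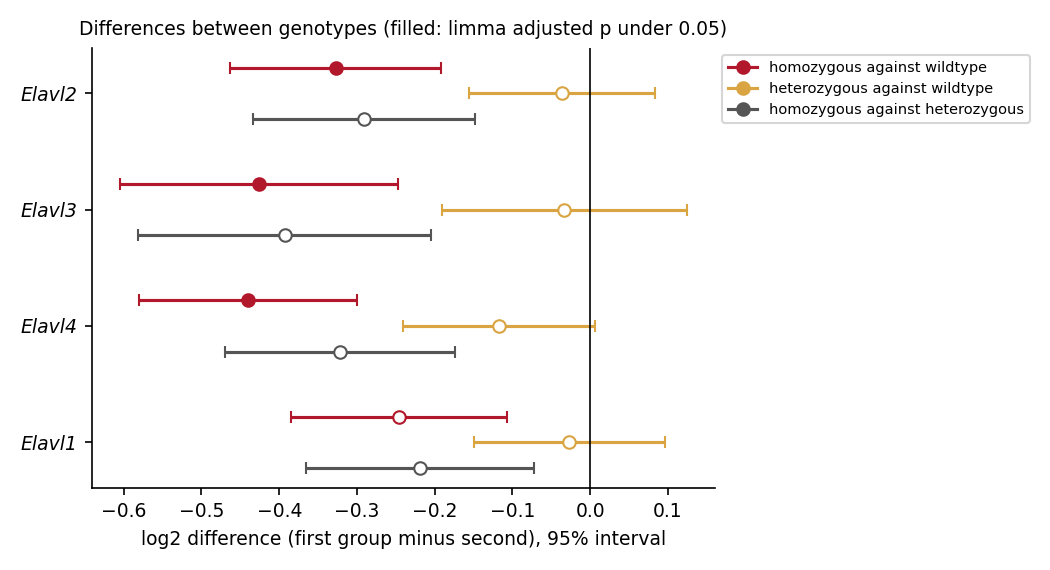
Log2 differences with 95% intervals for each Elavl gene in homozygous against wildtype, heterozygous against wildtype and homozygous against heterozygous embryos, filled where the limma adjusted p is under 0.05. The filled points are those of Elavl2 (-0.33), Elavl3 (-0.43) and Elavl4 (-0.44) in homozygous against wildtype embryos.

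Whether the members responded unequally was tested on the difference between 2 members within each array. This removes an offset shared by all probe sets of an array, but not scaling effects that vary with the signal level. The pair tests were not repeated with rescaled arrays. Of 6 pairs compared in homozygous against wildtype embryos, none passed the two-sided exact permutation test with adjustment over the pairs, in which the smallest possible unadjusted p is 0.00202. The level of Elavl4 minus that of Elavl2 came closest, at -0.23 ± 0.06 (SD, n = 4) in homozygous and -0.12 ± 0.06 (SD, n = 8) in wildtype embryos, a shift of -0.11 (exact permutation p = 0.0141, adjusted p = 0.0846). Relative to Elavl1, the shift was -0.19 for Elavl4 (exact permutation p = 0.0869), -0.18 for Elavl3 (exact permutation p = 0.111) and -0.08 for Elavl2 (exact permutation p = 0.426), with adjusted p of 0.222, 0.222 and 0.511. The call of the neuronal members and the missing call of Elavl1 are therefore not shown to differ. The shift between Elavl3 and Elavl2 was -0.10 (exact permutation p = 0.321, adjusted p = 0.482) and that between Elavl4 and Elavl3 -0.01 (exact permutation p = 0.907, adjusted p = 0.907). Each pair was tested again 12 times, with 1 array left out each time, and only 2 of these tests passed. Without homozygous replicate 1, the shift between Elavl3 and Elavl2 was -0.22 (exact permutation adjusted p = 0.0364). Without wildtype replicate 7, that between Elavl4 and Elavl2 was -0.13 (exact permutation adjusted p = 0.0364). With fewer arrays the smallest possible p is larger than the one given above.

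Elavl2 and Elavl4 also varied together within genotypes, with the genotypes pooled. After the genotype means were removed, Pearson's r was 0.68 over 18 arrays (permutation p = 0.00441, adjusted over 6 pairs p = 0.0265) and Spearman's rho 0.69 (permutation p = 0.00368, adjusted p = 0.0221). Without wildtype replicates 3 and 7, which lay farthest from the median of Elavl4, r was 0.52 (permutation p = 0.0564), so that the relation rests in part on those embryos. In the 8 wildtype embryos r was 0.89, and after the 75th percentile of each array was subtracted it was 0.54 over all arrays. None of the other 5 pairs passed, with r between 0.01 and 0.22 and adjusted p of 0.98 in each. For Elavl3 with Elavl2, r was 0.22 over all arrays, and it was 0.44 (permutation p = 0.0881) without homozygous replicate 1 and heterozygous replicate 4. For this pair r was 0.66 in the 8 wildtype embryos and 0.45 after subtraction of the 75th percentile. For Elavl4 with Elavl3 these values were 0.48 and 0.31. A high wildtype r was thus not particular to Elavl2 and Elavl4. No r was taken within heterozygous or homozygous embryos alone.

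**Figure D4:**
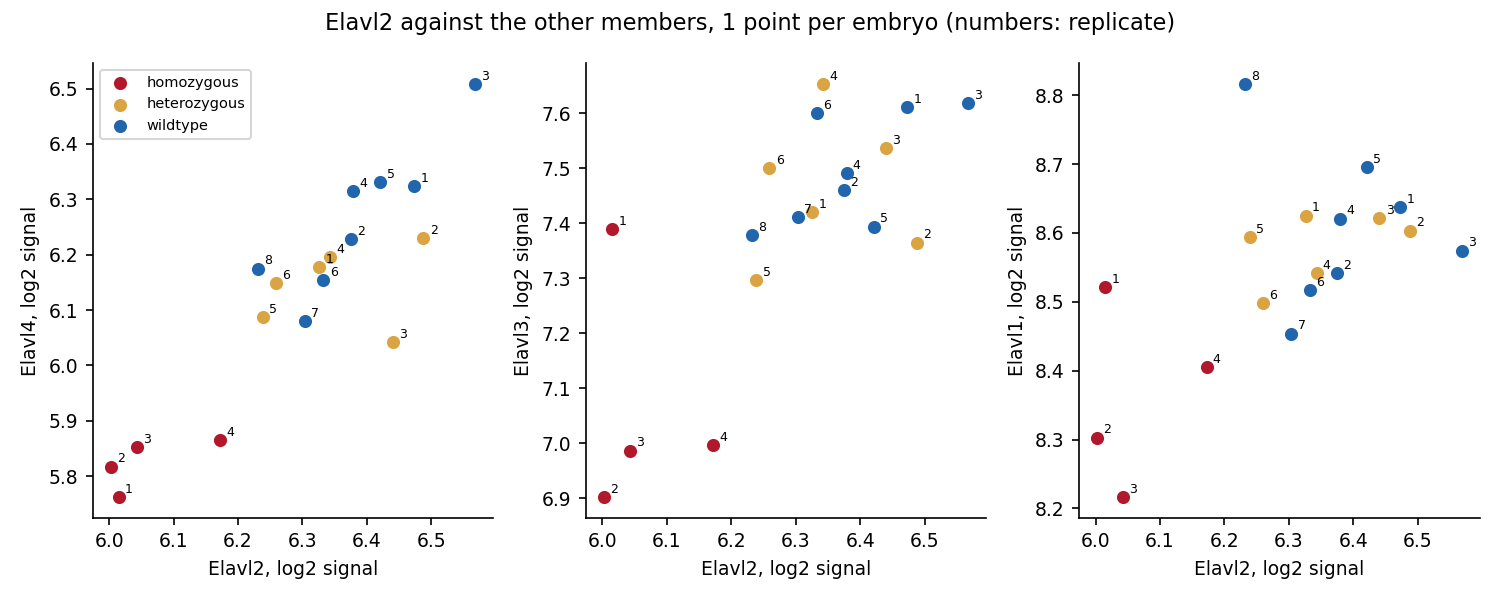
Log2 signal of Elavl4, Elavl3 and Elavl1 against that of Elavl2, 1 point per embryo, coloured by genotype and numbered by replicate. Elavl4 follows Elavl2 across the 18 embryos, while homozygous replicate 1 leaves the others of its genotype for Elavl3 and Elavl1.

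The genes with the most similar profile were ranked by Pearson's r over the 18 arrays among 14806 other genes, as a description in which the genotype difference, the library scale and the cell mix are shared. For Elavl2 the most similar gene was Elavl4 (r = 0.90, and 0.68 with genotype means removed). It was followed by Rpia, an enzyme of the pentose phosphate pathway (0.90 and 0.86), Lsm14b, a protein of messenger RNA granules (0.89 and 0.77), the phospholipase C gene Plcb1 (0.89 and 0.59) and the secretogranin gene Scg3 (0.89 and 0.76). For Elavl4 the list was St18, a zinc finger factor of the Myt1 family (0.95 and 0.76), Lsm14b (0.92 and 0.82), the signal transducer gene Stat3 (0.91 and 0.65), Scg3 (0.91 and 0.81) and the neuronal filament gene Ina (0.91 and 0.64). Lsm14b and Scg3 thus stood in the first 5 for both.

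The profile of Elavl3 was nearest to those of Disp2 (0.88 and 0.78), Dpysl3, a growth cone protein (0.88 and 0.75), the cadherin Celsr3 (0.86 and 0.73), Coro2b, an actin-binding coronin (0.86 and 0.73), and the axonal adhesion molecule L1cam (0.86 and 0.68). That of Elavl1 was nearest to Zfp598 (0.90 and 0.80), Pacs1 (0.89 and 0.82), the calcium pump gene Atp2a2 (0.89 and 0.82), the nuclear import gene Kpnb1 (0.89 and 0.88) and the histone demethylase gene Phf2 (0.88 and 0.81). In homozygous against wildtype embryos 0 of the 5 genes nearest to Elavl1 passed the test. Near Elavl2, Elavl4 and Plcb1 (-0.76, limma adjusted p = 0.000256) fell, while Rpia, Lsm14b and Scg3 had adjusted p of 0.149, 0.0534 and 0.0501. Near Elavl3, Celsr3 (-0.62, adjusted p = 0.0171) and L1cam (-0.69, adjusted p = 0.00177) fell, while Disp2, Dpysl3 and Coro2b had adjusted p of 0.0612, 0.071 and 0.0739. Near Elavl4, St18 (-0.73, adjusted p = 0.000409), Stat3 (-0.53, adjusted p = 0.00279) and Ina (-0.57, adjusted p = 0.0043) fell, while Lsm14b and Scg3 did not pass. The ranking used the same arrays and includes the genotype difference, so no contrast between these sets of genes is drawn.

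Other RNA-binding proteins gave no calls, where 0.504% of all probe sets were called lower and 0.06% higher. At those shares, lists of 33 and 21 genes would most often hold no call. Of 33 measured genes for neuronal RNA-binding and splicing factors, 0 passed in homozygous against wildtype embryos in either direction, with a median log2 difference of -0.17, against -0.03 over all probe sets. Quantile normalization put that median at -0.10, with -0.00 over all probe sets, and median centring put it at -0.10, with 0.04 over all. Their means were lower in 28 of 33, against 59.1% of all probe sets. The 3 with the smallest p were Ptbp3, a polypyrimidine tract binding protein (-0.29, SE 0.07, adjusted p = 0.0501), Celf4 (-0.39, SE 0.09, adjusted p = 0.0575) and Rbfox3, the NeuN antigen of neurons (-0.36, SE 0.09, adjusted p = 0.0666). Rbfox3 is also in the cortical neuron list used below. Ptbp2, the neuronal relative of Ptbp1, had a difference of 0.09 (SE 0.06), and was named after its value was seen. Of 21 factors that bind AU-rich elements or act in messenger RNA decay, 0 passed and the median was -0.04, with Ncl (-0.19, SE 0.07), Cnot1 (-0.16, SE 0.06) and Khsrp (-0.13, SE 0.06) having the smallest p. That median was 0.01 after quantile normalization and 0.03 after median centring.

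Transcripts described in the literature as bound by Elavl proteins were listed from general knowledge, without regard to cell type. Of 27 measured, 0 passed in either direction. Over all probe sets 0.504% were called lower and 0.06% higher, shares at which 27 genes would most often hold no call. The median was -0.11, and -0.05 with quantile normalized or median centred arrays. The smallest p values belonged to Nefm, the medium neurofilament (-0.67, SE 0.16, adjusted p = 0.0612), Myc (-0.57, SE 0.16, adjusted p = 0.1) and Mapt, which encodes tau (-0.38, SE 0.11, adjusted p = 0.109). Nefm, Mapt and Gap43 are also in the cortical neuron list used below, so the lists are not separate. Gap43, Slc2a1 and Vegfa were named after their values were seen. Gap43, a growth cone protein and well known HuD target, had 6.94 ± 0.13 (SD, n = 4) in homozygous and 7.19 ± 0.25 (SD, n = 8) in wildtype embryos, a difference of -0.25 (adjusted p = 0.313). Slc2a1 (0.69) and Vegfa (0.57) had higher means with an SD of 1.02 and 1.08 among homozygous embryos. Both belong to the hypoxia list that stood apart in homozygous replicate 2.

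**Figure D5:**
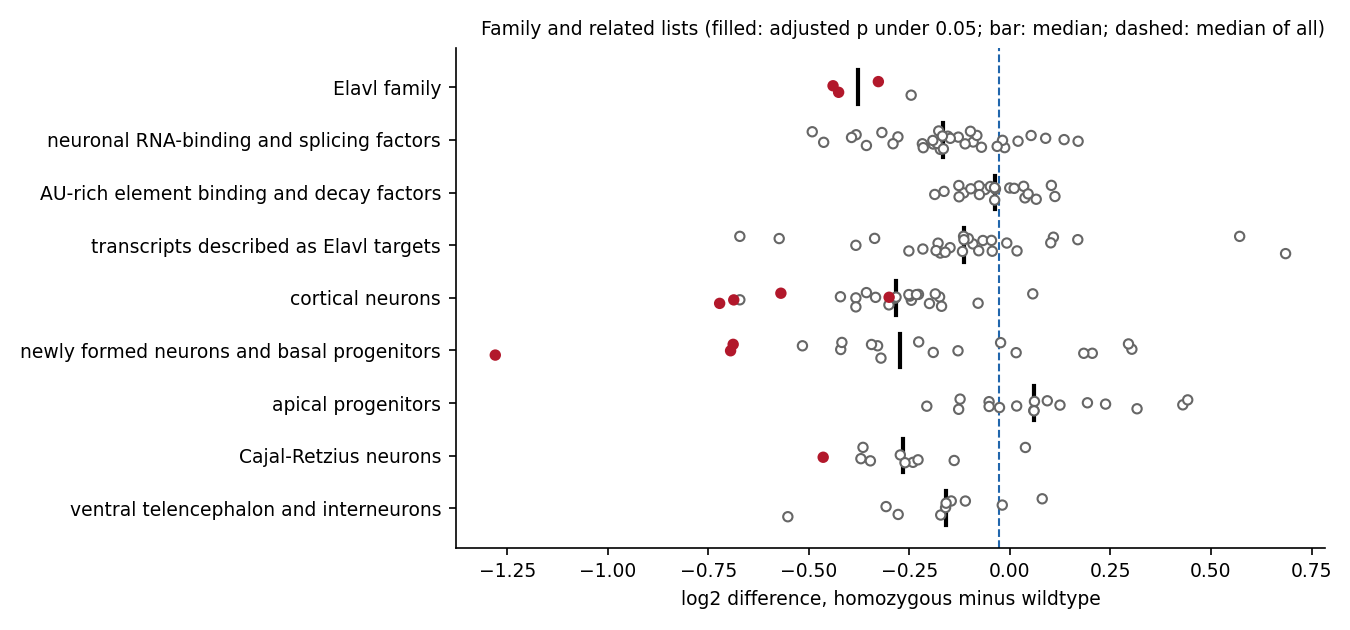
Log2 difference of homozygous minus wildtype embryos for every measured gene of the Elavl family and of related lists, 1 row per list, filled where the limma adjusted p is under 0.05, with a bar at the list's median and a dashed line at the median of all probe sets (-0.03). The Elavl median (-0.38) lies beside those of cortical neurons (-0.28) and of newly formed neurons (-0.27), and the apical progenitor median (0.06) lies on the other side of 0.

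Most neuronal markers moved with the Elavl genes. The marker lists, like the Elavl genes, were chosen with earlier results of these data known, so their counts are a description only. Of 24 measured cortical neuron genes other than Elavl, 23 had lower means, 4 fell (L1cam, Ina, Cntn2 and Map2) and 0 rose, with a median of -0.28, against 0.504% of all probe sets called lower and 59.1% with a lower mean. The call of Map2 was lost when arrays were quantile normalized (adjusted p = 0.0761) or median centred (adjusted p = 0.125). The mean of this list ran from 5.72 to 5.80 in homozygous and from 5.91 to 6.25 in wildtype embryos, with no overlap. Of 18 genes of newly formed neurons and basal progenitors, 13 had lower means, 3 fell and 0 rose, with a median of -0.27. Those that fell were Nhlh1 (by 0.69), Neurod4 (by 1.28) and Neurod1 (by 0.69 on the log2 scale), all basic helix-loop-helix factors. Among the higher means were those of Gadd45g (0.30) and Dll3 (0.29), neither of them called. The mean over all 18 genes ran from 5.20 to 5.37 in homozygous and from 5.42 to 5.68 in wildtype embryos. Of 10 Cajal-Retzius neuron genes 1 fell, Ebf3, and the median was -0.27. Of 17 apical progenitor genes 0 passed, and their median was 0.06, or 0.14 with quantile normalized and 0.12 with median centred arrays. After quantile normalization or median centring, Dll3 (limma adjusted p = 0.0167 and 0.0339) was called higher. So was the apical progenitor gene Veph1 (limma adjusted p = 0.0172 and 0.0193). In whole tissue, fewer neurons and less RNA per neuron cannot be told apart.

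Relative to the cortical neuron list, Elavl2 shifted by -0.01, Elavl3 by -0.11, Elavl4 by -0.12 and Elavl1 by 0.07 between homozygous and wildtype embryos, values given with no test. The level of Elavl2 minus the mean of that list was 0.30 ± 0.06 (SD, n = 4) in homozygous and 0.30 ± 0.06 (SD, n = 8) in wildtype embryos. For Elavl4 it was 0.06 ± 0.05 (SD, n = 4) in homozygous and 0.18 ± 0.09 (SD, n = 8) in wildtype embryos, for Elavl3 1.31 ± 0.21 in homozygous and 1.41 ± 0.10 in wildtype embryos, and for Elavl1 2.60 ± 0.12 in homozygous and 2.53 ± 0.19 in wildtype embryos. With the list mean as a covariate in the fit over all probe sets, no Elavl gene passed. The differences were -0.27 for Elavl4 (SE 0.09, limma adjusted p = 0.346), -0.25 for Elavl3 (SE 0.12, adjusted p = 0.536), -0.14 for Elavl2 (SE 0.08, adjusted p = 0.618) and -0.25 for Elavl1 (SE 0.10, adjusted p = 0.462). That fit called 0 probe sets lower and 3 higher in all, and the covariate itself differs between the genotypes.

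Markers of other tissue and of the hypoxia response gave no calls in homozygous against wildtype embryos. Over all probe sets 0.504% were called lower and 0.06% higher, so lists of this size would most often hold no call. The medians were -0.16 for 10 genes of ventral telencephalon and interneurons, where neuronal Elavl genes are also expressed, 0.44 for 13 hypoxia response genes, 0.02 for 5 erythroid genes, -0.01 for 12 genes of endothelium and pericytes, -0.00 for 10 of microglia and macrophages and 0.01 for 10 of meninges and mesenchyme, those of endothelium and microglia changing sign with the scale of the arrays. The mean of the hypoxia list was 4.93 in homozygous replicate 2 and 3.60 to 3.698 in the other homozygous embryos. In wildtype embryos it ran from 3.45 to 3.81. The mean of the ventral list ran from 1.58 to 1.93 in homozygous and from 1.69 to 2.32 in wildtype embryos. Fits that held the hypoxia list gave differences of -0.45 for Elavl4 (limma adjusted p = 0.00808) and -0.23 for Elavl1 (adjusted p = 0.178), and fits that held the ventral list gave -0.41 for Elavl4 (adjusted p = 0.0117) and -0.22 for Elavl1 (adjusted p = 0.202). The part of the erythroid, endothelial, microglial and meningeal lists in the Elavl differences was not tested.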

How the data were processed

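The authors deposited 1 table of log2 signals, with 23238 transcript-level probe sets and 18 arrays. Per the submitters' processing notes, the deposited log2 values were made with RMA in Affymetrix Expression Console 1.1. Genome build and probe filters are not given in the sources used here. Probe sets with identifiers of 6700000 or above (16661) were tested, and gene names came from the platform annotation. Each Elavl gene had 1 probe set, and no filter on low values was used. The linear model had 1 mean per genotype over all 18 arrays (limma 3.58.1, R 4.3.3), with Benjamini-Hochberg adjustment over the 16661 and a threshold of 0.05, two-sided. Slopes used the number of mutant alleles. Pairs were tested by exact permutation, and correlations with 100000 permutations within genotype. The fits were tested on simulated data. The Elavl genes and the lists were chosen with earlier results of these data known. By rule, the genes to name were Insm1, the Elavl genes, the 5 most similar to each, and list members that passed. For a list with no call they were the 3 with the smallest p, which the text gives for the RNA-related lists only. Emx2, Pax6, Tbr1, Gsx2, Sst, Dlx1, Dlx2 and Eif2s3y, named to describe the samples, and Ptbp2, Gap43, Slc2a1 and Vegfa were chosen after their values were seen. So were Gadd45g, and Dll3 and Veph1, which passed with rescaled arrays. No 2 arrays were identical (r up to 0.996). The number of arrays limits the precision.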

Additional observations from a re-analysis of the deposited data

Results flagged for a closer look

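In 54 groups of embryos checked for an embryo far from its group (18 quantities in 3 genotypes), 3 stood apart, where chance gives about 1 in 20. The Insm1 level of heterozygous replicate 6 was 4.02, against 4.76 to 5.17 in the other 5 heterozygous embryos. The mean of the hypoxia response list was 4.933 in homozygous replicate 2, against 3.60 to 3.698 in the other homozygous embryos, and 4.926 in heterozygous replicate 6, against 3.56 to 3.78 in the other heterozygous embryos. Heterozygous replicate 6 had Elavl levels inside the range of its genotype for Elavl2 (6.26), Elavl3 (7.50) and Elavl4 (6.15) and the lowest of it for Elavl1 (8.498). Without homozygous replicate 2 and heterozygous replicate 6 together, Elavl4 differed by -0.44 between homozygous and wildtype embryos (limma adjusted p = 0.0167). No Elavl level passed the limit of this measure. That includes Elavl3 in homozygous replicate 1, at 7.39 against 6.90 to 6.998 in the other homozygous embryos. With 4 embryos a gap must exceed 0.829 of the range to be flagged. The lack of a flag does not show this embryo to be like the others.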

How the results depend on the processing

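Over 33 alternatives each, the homozygous minus wildtype difference stayed negative for all 4 Elavl genes. Apart from single arrays, those that ended a call were the hypoxia list as covariate for Elavl2 (-0.31) and Elavl3 (-0.41), the ventral list for Elavl2 (-0.30) and Elavl3 (-0.39), the cortical neuron list for Elavl2 (-0.14), Elavl3 (-0.25) and Elavl4 (-0.27), the joint removal of homozygous replicate 2 and heterozygous replicate 6 for Elavl2 (-0.31) and Elavl3 (-0.37), and, for Elavl3, quantile normalization (-0.38) and median centring (-0.36). The causes were not tested. Leaving out each array gave -0.30 to -0.20 for Elavl1, -0.37 to -0.30 for Elavl2, -0.53 to -0.37 for Elavl3 and -0.47 to -0.41 for Elavl4, and ended the call of Elavl2 2 times (homozygous replicates 2 and 3) and that of Elavl3 5 times (homozygous replicates 2, 3 and 4 and wildtype replicates 1 and 3). For the 6 pairs it gave -0.13 to -0.01 (Elavl2 minus Elavl1), -0.23 to -0.14 (Elavl3 minus Elavl1), -0.25 to -0.12 (Elavl4 minus Elavl1), -0.22 to -0.037 (Elavl3 minus Elavl2), -0.13 to -0.0885 (Elavl4 minus Elavl2) and -0.0671 to 0.11 (Elavl4 minus Elavl3, where removing homozygous replicate 1 or wildtype replicate 3 or 5 gave 0.114, 0.00355 and 0.0101).

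Small heterozygous minus wildtype differences turned positive after quantile normalization (0.013 for Elavl1, 0.013 for Elavl2 and 0.0057 for Elavl3), median centring (0.030, 0.021 and 0.024), with the 75th percentile as covariate (0.012 for Elavl1 and 0.025 for Elavl2), with the cortical neuron list (0.041 for Elavl2 and 0.037 for Elavl3) and, for Elavl1, over a range of -0.0485 to 0.0033 with 1 array left out, the highest without wildtype replicate 8. Within-genotype correlations that turned negative were those of Elavl3 and Elavl1 (-0.15), Elavl4 and Elavl1 (-0.15) and Elavl4 and Elavl3 (-0.17) without the 2 farthest arrays, and, after subtraction of the 75th percentile, chosen after seeing the data, Elavl2 and Elavl1 (-0.0794) and Elavl4 and Elavl1 (-0.12).

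Whether replicate numbers pair the embryos is not given, and a correlation of their deviations cannot settle it. Same-numbered homozygous and wildtype embryos deviated together with r from -0.04 to 0.13. The range was -0.08 to 0.22 for heterozygous and wildtype embryos and -0.21 to 0.15 for homozygous and heterozygous embryos. With the replicate block the differences were -0.24 for Elavl1, -0.40 for Elavl2, -0.48 for Elavl3 and -0.51 for Elavl4, with no change of call, and the slopes of Elavl2 (-0.19) and Elavl3 (-0.22) passed. The count of all probe sets called lower, 84, ran from 0 with the cortical neuron list to 347 with the block, was 31, 32, 52 and 55 without homozygous replicates 2 and 3 and wildtype replicates 3 and 1, was 176, 312 and 335 without wildtype replicate 7, homozygous replicate 1 and heterozygous replicate 6, was 129 without the dimmest probe sets and 47 with the ventral list. The count called higher, 10, ran from 3 to 99. No Elavl gene had a further probe set to try.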
